A study of Mus musculus with 13 samples.

Results

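Histone genes were followed across 13 bead arrays of sorted mouse blood stem and progenitor cells. The genes were taken from the platform's gene symbols, by the names of the linker (H1) and core (H2A, H2B, H3 and H4) histone genes together with the H2az and H3f3 genes. The platform listed 63 such genes with 94 probes, and 56 of them had a probe with a detection p under 0.01 on at least 2 arrays. For each gene the brightest probe was kept. These 56 genes are 56 of the 12807 features that passed the same detection rule in the whole data set. The remaining 7, H1f3, H1f4, H1f6, H1f7, H1f8, H2ac1 and H2bc1, were detected on 0 arrays, while every gene kept was detected on at least 12. Of the 56 genes 51 are replication-dependent histone genes (3 of H1, 15 of H2A, 12 of H2B, 9 of H3 and 12 of H4) and 5 are replacement histone genes (H1f10, H2az1, H2az2, H3f3a and H3f3b). On chromosome 13 lay 42 of the replication-dependent genes, and on chromosome 3 the other 9.

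The cells came from mice on a C57BL/6 background. Tested genotypes were c-Cbl A/-, with 1 allele named A over a null allele, and c-Cbl -/-, set against c-Cbl +/+ controls. The c-Cbl protein is an E3 ubiquitin ligase that tags activated receptor tyrosine kinases for degradation. The labels do not spell out allele A, nor do they give the sex of the mice or whether animals were pooled. Arrays of A/- and +/+ cells, 1 of each, covered long-term stem cells (LTHSC, CD34- Flt3-), short-term stem cells (STHSC, CD34+ Flt3-), multipotent progenitors (MPP, CD34+ Flt3+), common myeloid progenitors (CMP, CD34+ and low in Fc gamma receptor), granulocyte-macrophage progenitors (GMP, CD34+ and Fc gamma receptor positive) and megakaryocyte-erythroid progenitors (MEP, negative for both). All were sorted as lineage-negative and c-Kit+. The first 3 were also Sca1+ and are called LSK cells, and the last 3 were Sca1- and are called committed progenitors. The -/- genotype had 1 array, of LTHSC.

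Replication-dependent histone genes sit in clusters, lack introns and are transcribed mainly during S phase, when newly made DNA has to be packed into nucleosomes. Their mRNAs end in a stem-loop instead of a poly(A) tail, and stem-loop binding protein governs their processing, translation and decay. Replacement histones such as H3.3 and H2A.Z are made throughout the cell cycle from ordinary polyadenylated mRNAs and enter chromatin outside replication. In blood formation, long-term stem cells divide rarely and progenitors divide often. The array labelling used here copies RNA from an oligo(dT) primer, so for stem-loop mRNAs the signal depends on whatever transcripts that primer reached. Members of a histone family also have near-identical coding sequences, so 1 probe may read several members, and single members are uncertain for this reason.

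Values are log2 signals after background correction and quantile normalization over the 13 arrays, and differences are on the log2 scale, so -1 is a halving. A level of 1 probe cannot be set against that of another. Before normalization the mean probe signal was lower in A/- than in +/+ in all 6 pairs, at 248.95 against 260.23 in LTHSC and at 744.09 to 917.68 against 1004.6 to 1149.6 in the other 5. The 3 LTHSC arrays formed a dimmer set of their own, with medians between 51.7 and 52.9 against 148.31 to 191.04 on the other 10. Steps into or out of LTHSC and this set cannot be told apart. The probe of Cbl itself was detected on 0 of 13 arrays and so checks no label. Among the sort antigens, Kit was detected on 13 arrays and Flt3 on 0, the Flt3+ MPP included. Cd34 was at 10.01 to 10.21 on the LTHSC arrays, although these cells were sorted as CD34-, and at 6.26 and 6.99 on the A/- and +/+ MEP arrays. Fcgr3, which encodes one of the Fc gamma receptors, was at 4.43 on the A/- and at 8.60 on the +/+ MEP array, both sorted as negative.

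**Figure D1:**
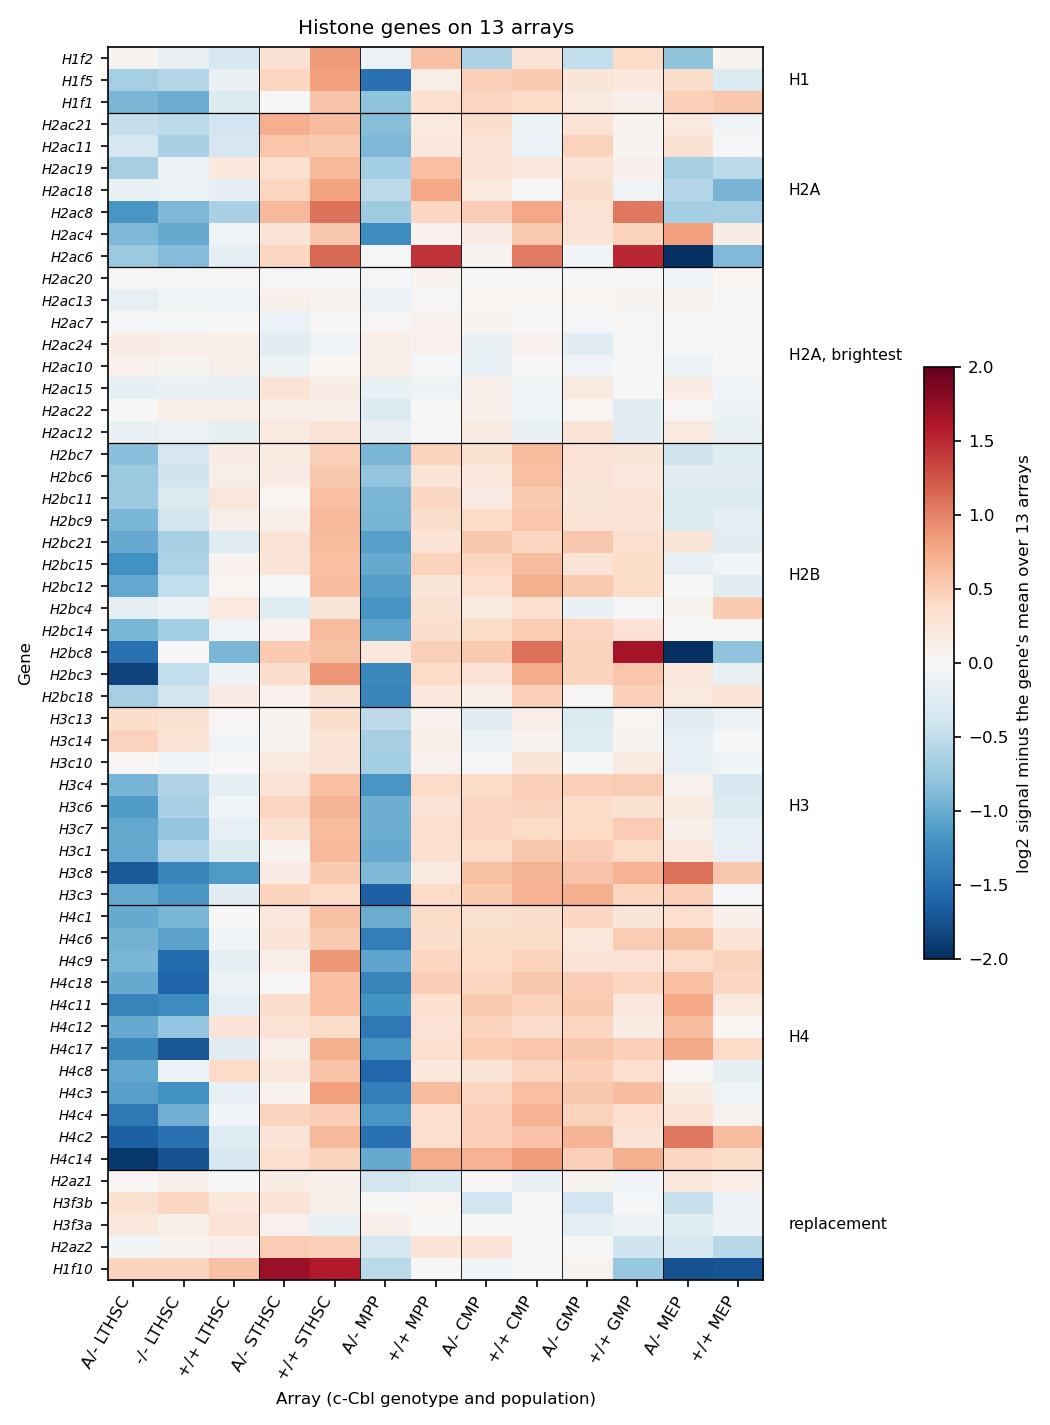
Log2 signal of 56 histone genes (down) on 13 arrays (across), as the difference from each gene's own mean over the 13 arrays, with the colour scale stopped at 2 in both directions. Most H2B, H3 and H4 genes are blue on the A/- LTHSC and A/- MPP arrays, and the 8 brightest H2A genes are nearly even over all arrays.

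The first comparison set A/- against +/+ within the LSK cells. Replication-dependent histone genes were lower in A/- LSK cells, with a median difference of -0.84 over 51 genes, while the median over all 12807 features was 0.02. The difference was negative for 49 of the 51. Limma called 0 histone genes at a Benjamini-Hochberg adjusted p under 0.05, and 0% of all features. At an unadjusted p under 0.05, 36 of the 56 genes were lower in A/- and 0 higher, against 4.09% and 2.92% of all features. All 36 were replication-dependent. The SEs and p-values rest on a spread estimated from the LSK and committed pairs together. The SD of the pair medians of the replication-dependent genes was 0.5 over the LSK pairs and 0.167 over the committed pairs. A spread from the LSK pairs alone was not used. By another count, 36 genes were lower in A/- in all 3 LSK pairs and 0 were higher in all 3, where 11.2% of all features were lower and 14.6% higher in all 3.

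The median difference was near -1 for H4 and H2B and nearest to 0 for H2A. The 12 H4 genes had a median difference of -1.04 and the 12 H2B genes of -0.91, and each of these 24 genes was lower in A/- in all 3 LSK pairs. The 9 H3 genes had a median of -0.83 and the 3 H1 genes, linker histones that bind DNA between nucleosomes, of -0.77. The 15 H2A genes stood at -0.12. At an unadjusted p under 0.05, 12 of 12 H4, 11 of 12 H2B, 6 of 9 H3, 5 of 15 H2A and 2 of 3 H1 genes were lower. By cluster, 31 of the 42 genes on chromosome 13 and 5 of the 9 on chromosome 3 were lower at that threshold, with medians of -0.87 and -0.54.

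The 6 genes with the smallest p in LSK cells were of the H2B and H4 families. H2bc9, an H2B gene, was at 10.27, 11.30 and 10.25 on the A/- LTHSC, STHSC and MPP arrays, against 11.28, 11.82 and 11.52 on the +/+ arrays. Its difference was -0.94 (SE 0.14, n = 3 pairs, limma adjusted p = 0.197). A/- was lower in each pair, although the A/- STHSC level lay just above the +/+ LTHSC level. H4c9 was at 9.71, 10.76 and 9.56 in A/- and at 10.44, 11.49 and 11.05 in +/+ (difference -0.98, SE 0.16, adjusted p = 0.197). H4c17 was at 8.56, 9.99 and 8.68 in A/- and at 9.65, 10.56 and 10.18 in +/+ (difference -1.05, SE 0.18, adjusted p = 0.219). Both are H4 genes, and in both the LTHSC and MPP arrays of A/- were the low ones. H2bc11 (-0.95), H2bc12 (-1.0) and H2bc14 (-0.94), further H2B genes, had adjusted p-values between 0.197 and 0.266. Among H3 genes H3c1 had the smallest p (-0.88, SE 0.17, adjusted p = 0.284), with 9.57, 10.66 and 9.59 in A/- against 10.32, 11.24 and 10.91 in +/+. Among H1 genes it was H1f1 (-0.77, SE 0.18, adjusted p = 0.374).

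**Figure D2:**
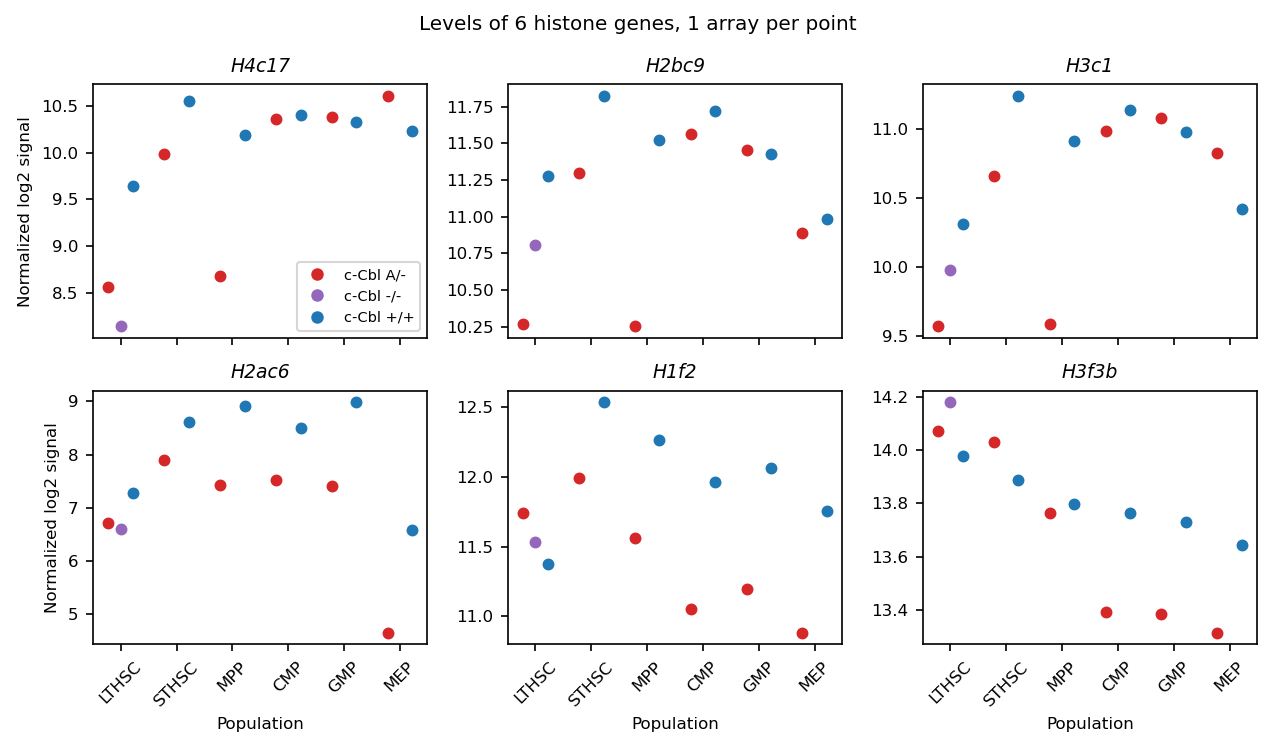
Normalized log2 signal of 6 histone genes, with 1 array per point, populations along the horizontal axis and genotypes in colour. H4c17, H2bc9 and H3c1 are low on the A/- LTHSC and A/- MPP arrays, whereas H2ac6 is lower in A/- in each of the 6 populations and H3f3b is lower in A/- in CMP, GMP and MEP.

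Promoters are shown for the members on which the genotype results turn. The stretches below are the 120 bases just upstream of the annotated start in RefSeq, build GRCm38.p6, written 5' to 3' on the gene's own strand. Capitals mark matches on either strand to 5 motifs, CCAAT (reverse ATTGG), the site of the factor NF-Y, TATAA (reverse TTATA), the core of the TATA box, ATTTGCAT (reverse ATGCAAAT), the octamer bound by OCT1 in H2B promoters, AAACACA (reverse TGTGTTT), a motif of H1 promoters, and GTCCGC (reverse GCGGAC), the core of the site of HINFP in H4 promoters. The first 3 genes are the H2B gene and the H4 genes whose levels by array were given above, at chr13:23543445-23543564 (minus strand) for H2bc9, chr13:22041363-22041482 (minus strand) for H4c9 and chr13:21811626-21811745 (plus strand) for H4c17.
H2bc9: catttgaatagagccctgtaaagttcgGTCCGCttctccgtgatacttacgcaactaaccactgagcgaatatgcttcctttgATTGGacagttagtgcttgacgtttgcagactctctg
H4c9: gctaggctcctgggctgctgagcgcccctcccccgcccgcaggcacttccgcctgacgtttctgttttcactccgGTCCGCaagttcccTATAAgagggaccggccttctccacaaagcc
H4c17: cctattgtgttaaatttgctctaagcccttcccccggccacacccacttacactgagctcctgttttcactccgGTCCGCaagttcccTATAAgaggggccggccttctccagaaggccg
The H4c9 and H4c17 stretches share an unbroken run of 38 bases that spans both marked motifs. This run was found in 3 promoters of the whole RefSeq table, all 3 of H4 genes. H2bc9 carries GTCCGC and, in reverse, CCAAT.

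RefSeq promoters were matched for 51 of the 56 genes (52 promoters), and the 250 bases upstream of each start were searched. CCAAT was found in 38 of 47 promoters of replication-dependent members (80.9%), against 33.8% of all 32851 promoters. It was in all 15 H2A, all 11 H2B and all 3 H1 promoters, and in 3 of 11 H4 promoters. Of the replacement promoters 4 of 5 held it as well. TATAA was in 59.6% of the replication-dependent promoters against 22.8% of all promoters. GTCCGC was in 8 of 11 H4 promoters (72.7%) against 7.42% of all promoters. It was also in 5 of 15 H2A, 1 of 11 H2B and 2 of 5 replacement promoters. The octamer was in 6 of 11 H2B and 5 of 15 H2A promoters and in 1.6% of all promoters, and AAACACA was in 2 of 3 H1 promoters and in 6.25% of all. Matches of different motifs overlapped in 0 cases among the members. Such matches describe the letters of the window and do not show binding.

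The size of the difference varied between the LSK pairs. In the MPP pair the 51 replication-dependent genes had a median of -1.32 and 38 genes were at least 2-fold lower in A/-, against 4.92% of all features. In the LTHSC pair the median was -0.75 and 12 genes were at least 2-fold lower, 7 of H4, 4 of H2B and 1 of H3, against 1.53% of all features. With 75th percentile scaling 6 genes reached 2-fold there, and with the authors' processed values 1. In the STHSC pair the median was -0.32 and 0 genes reached 2-fold, against 3.05% of all features. The largest single differences were those of H3c3 in MPP (5.04 in A/-, 7.07 in +/+), an H3 gene not detected on the A/- array, and of H4c3 in MPP (7.11 in A/-, 9.11 in +/+). In LTHSC it was H2bc3, at 5.72 in A/- and 7.47 in +/+. Without the MPP pair the LSK median was -0.57, with 28 genes at an unadjusted p under 0.05. Without STHSC it was -1.07 with 38 genes, and without the dimmer LTHSC arrays -0.84 with 39. The share of all features at that threshold was not counted with pairs left out, so these gene counts have no background beside them.

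**Figure D3:**
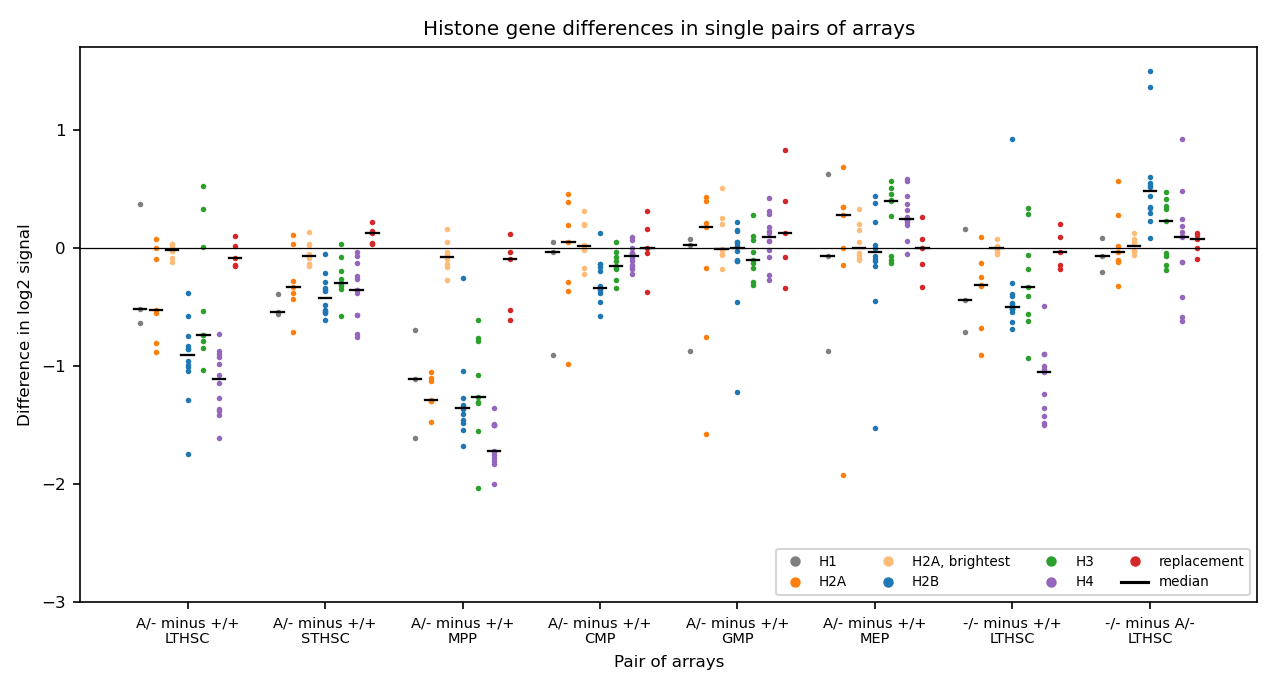
Differences in log2 signal of 56 histone genes in 8 pairs of arrays, with 1 point per gene, families in colour and black bars at the median of each family. For MPP all 12 H4 genes lie at or below -1.36, while in CMP, GMP and MEP most points lie near 0 and a few H2A and H2B genes lie lower.

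The small median LSK difference of the H2A family came with a group of very bright probes. H2ac7, H2ac10, H2ac12, H2ac13, H2ac15, H2ac20, H2ac22 and H2ac24 lay between 14.70 and 15.62 on all 13 arrays, and no other replication-dependent gene exceeded 13.51. This group was formed after the values had been seen. Its unnormalized signals were 25144 to 60637 on the 10 arrays outside LTHSC, where the highest signal of an array was 53680 to 62624. The SD of these 8 over the 13 arrays was between 0.0335 and 0.191, against 0.242 to 1.19 among the other 43. Their LSK median was -0.06, and that of the other 43 was -0.88. The other 7 H2A genes, H2ac4, H2ac6, H2ac8, H2ac11, H2ac18, H2ac19 and H2ac21, had a median of -0.70 and 5 of them were lower at an unadjusted p under 0.05. For H2ac20 a second, dimmer probe gave -0.81 where the bright probe gave -0.05, and for the H3 genes H3c10 and H3c14 dimmer probes gave -0.76 and -0.68 where the bright ones gave -0.28 and -0.16. A further dimmer H3c10 probe gave -0.31, close to the bright one, and for the H2B gene H2bc21 the dimmer probe gave 0.06 where the brightest gave -0.82. In all, 21 further detected probes of 19 histone genes were measured, and 17 had the same sign as the gene's brightest probe in LSK cells.

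Several H2A and H2B genes are close neighbours, and the members hold 8 such pairs less than 1 kb apart. H2ac15 and H2bc15 lie 163 bases apart on opposite strands, with LSK differences of 0.02 and -1.03. H2ac12 and H2bc12, 177 bases apart, were at -0.07 and -1.0, and H2ac7 and H2bc7, 173 bases apart, at -0.08 and -0.88. In each of these the H2A member is one of the 8 bright probes. Where the H2A probe was not among the 8, the differences were -0.36 and -0.95 for H2ac11 and H2bc11, -0.70 and -0.30 for H2ac8 and H2bc8, -0.92 and -0.79 for H2ac6 and H2bc4, and -0.35 and -0.82 for H2ac21 and H2bc21.

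Replacement histone genes did not show the low LSK values. Their median LSK difference was -0.01 over 5 genes, and 0 of 5 were lower at an unadjusted p under 0.05. H2az1, which encodes the variant H2A.Z placed around transcription starts, was at 14.15, 14.26 and 13.74 in A/- and at 14.13, 14.22 and 13.84 in +/+ (difference -0.01, SE 0.07, n = 3 pairs, limma adjusted p = 0.971). H3f3a and H3f3b, which both encode H3.3, differed by 0.08 (SE 0.09, adjusted p = 0.839) and 0.07 (SE 0.07, adjusted p = 0.846). H2az2 had the smallest p of the 5 (-0.24, SE 0.13, adjusted p = 0.724). Probe brightness differed too. H2az1, H3f3b and H3f3a had mean levels of 14.1, 13.8 and 13.4. The replication-dependent H3c13 and H3c14, with means of 13.1 and 12.7, differed by -0.19 and -0.16 in LSK cells. Among bright probes the histone class and the brightness cannot be told apart. The dimmer H2az2 and H1f10, with means of 11.8 and 8.87, differed by -0.24 and -0.18. The H2az1 promoter, at chr3:137864367-137864486 (plus strand), is shown for comparison and holds CCAAT in both orientations.
H2az1: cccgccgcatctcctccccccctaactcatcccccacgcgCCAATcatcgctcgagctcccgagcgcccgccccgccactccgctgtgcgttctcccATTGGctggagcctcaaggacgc
Outside the naming rule, the variant genes Macroh2a1, Cenpa, H2ax and H2aj, all H2A or H3 variants, differed by 0.00, -0.21, -0.30 and -0.36, and the 6 measured variant genes had a median of -0.14. Of these 6, H2ax and Cenpa were lower at an unadjusted p under 0.05 and 0 were called.

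Genes of the replication programme showed no such shift in LSK cells. The 34 measured genes of DNA replication had a median LSK difference of 0.01, with 0 called, 1 higher and 0 lower at an unadjusted p under 0.05. Mcm5 and Mcm4, subunits of the replicative helicase, differed by 0.11 (SE 0.12, adjusted p = 0.850) and 0.13 (SE 0.14, adjusted p = 0.842). In MPP the median was 0.20 for replication genes, 0.06 for 13 genes of mitosis and -1.36 for the replication-dependent histone genes without the 8 bright probes. In LTHSC these medians were -0.19, -0.18 and -0.85, and in STHSC 0.06, 0.13 and -0.36. Factors of histone gene transcription and mRNA processing (21 genes) had an LSK median of -0.01 and histone chaperones (23 genes) of 0.06, with 0 called in both lists. The chaperone Npm1 was at 0.15 (SE 0.09, adjusted p = 0.746) and the acetyltransferase Hat1, which marks new H4, at 0.06 (SE 0.11, adjusted p = 0.902). In such bulk samples fewer cells in S phase and less histone RNA per cell cannot be told apart.

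**Figure D4:**
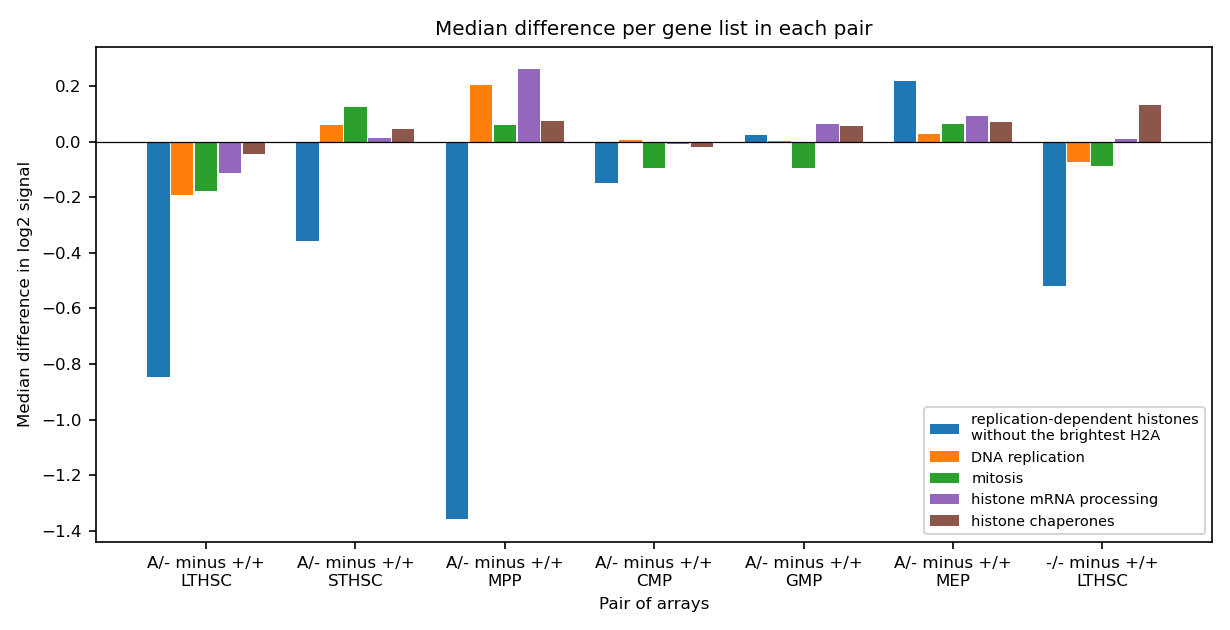
Median difference in log2 signal of 5 gene lists in 7 pairs of arrays, with bars from 0. The histone bars are -0.85, -0.36 and -1.36 in the A/- LTHSC, STHSC and MPP pairs, where the 4 other lists lie between -0.19 and 0.26.

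Markers of mature cells also differed between the LSK arrays. The 14 neutrophil markers had a median LSK difference of -0.79, with 0 called and 1 lower at an unadjusted p under 0.05, and a summed linear signal of 96430 to 134130 in A/- against 116330 to 213700 in +/+. Of these, Itgam was detected on 0 of the 3 A/- LSK arrays. By pair their median was 0.24 in LTHSC, -1.18 in STHSC and -1.25 in MPP. The 10 erythroid markers had a median of -1.08, with 0 called and 2 lower, and sums of 13807 to 26118 in A/- against 25494 to 52450 in +/+, and all 10 were detected in both groups. By pair their median was -1.48 in LTHSC, -0.56 in STHSC and 0.05 in MPP. In the MPP pair members of the erythroid list went both ways, and their summed signal was 15320 in A/- against 38271 in +/+, with the globin gene Hba-a1 at 10.76 against 13.72. The neutrophil sum there was 122190 in A/- against 213700 in +/+. The 6 B, T and NK cell markers had a median of -0.64, the 7 macrophage markers of -0.56 and the 5 megakaryocyte markers of -0.02. Of these, 3, 3 and 0 were lower at an unadjusted p under 0.05, against 4.09% of all features, with 0 called. By pair from LTHSC to MPP the medians were -0.81, -0.49 and -0.72 for B, T and NK cell markers. They were -0.04, -0.84 and -0.81 for macrophage markers, and 0.17, 0.33 and -0.24 for megakaryocyte markers. The part of such cells in the histone differences was not tested.

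The -/- LTHSC array had no replicate, and its comparisons share arrays with those above. Against +/+, the 51 replication-dependent genes had a median of -0.47, and 8 genes were at least 2-fold lower in -/-, all of H4, against 2.26% of all features. With 75th percentile scaling 4 genes reached 2-fold, and with the authors' processed values 3. The 12 H4 genes had a median of -1.05 and the 12 H2B genes of -0.50, where the A/- LTHSC array had -1.12 and -0.91 against the same +/+ array. For H4c17 the level was 8.14 on the -/- array, 8.56 on A/- and 9.65 on +/+, so both mutant arrays were low. For H2bc9 it was 10.81 on the -/- array, 10.27 on A/- and 11.28 on +/+, with the -/- array in between. Set against A/-, the -/- array had all 12 H2B genes higher, with a median of 0.48, and 2 genes at least 2-fold higher, H2bc8 and H2bc3, against 1.02% of all features, and 0 at least 2-fold lower, against 2.74%. H2bc8 was at 7.82 in -/-, 6.32 in A/- and 6.90 in +/+. Replacement genes had medians of -0.03 against +/+ and 0.08 against A/-. Against +/+, neutrophil markers had a median of -0.63 and erythroid markers of -1.72 on the -/- array, and their part was not tested.

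In committed progenitors the histone genes as a group showed no such difference. The median of the 51 replication-dependent genes was 0.01, the same as over all features, and 0 of 56 genes were called by limma, against 0.476% of all features (0.336% lower). At an unadjusted p under 0.05, 4 genes were lower and 4 higher, against 9.84% and 8.8% of all features. The CMP pair had a median of -0.14, the GMP pair of 0.02 and the MEP pair of 0.19. Genes at least 2-fold lower numbered 0 in CMP, 2 in GMP and 2 in MEP, against 1.77%, 4.11% and 4.35% of all features, and the 2 were H2ac6 and H2bc8 each time. At least 2-fold higher in A/- were 0 histone genes in each of the 6 pairs, against 2.19%, 1.01%, 1.37%, 1.21%, 4.04% and 1.75% of all features from LTHSC to MEP. Of the 51 replication-dependent genes 14 were lower and 9 higher in A/- in all 3 committed pairs, against 22.7% and 25.7% of all features.

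The lowest adjusted p-values in committed progenitors were those of 4 genes lower in A/- and of H2ac12. H2ac6 differed by -1.50 (SE 0.25, n = 3 pairs, limma adjusted p = 0.0516), H2bc8 by -1.11 (SE 0.22, adjusted p = 0.0749), H1f2 by -0.89 (SE 0.18, adjusted p = 0.0818) and H3f3b by -0.35 (SE 0.07, adjusted p = 0.0825). H3f3b was at 13.39, 13.38 and 13.31 on the A/- CMP, GMP and MEP arrays against 13.76, 13.73 and 13.64 on the +/+ arrays. It was thus lower in A/- in all 3 committed pairs, as were 22.7% of all features. On the higher side H2ac12 had the smallest p (0.38, SE 0.07, adjusted p = 0.0757), followed by H2ac15 (0.20), H2ac22 (0.20) and H2az2 (0.32), with adjusted p-values between 0.182 and 0.238. The first 3 of these are among the bright H2A probes. Calls appeared with other settings, 2 with scaling to the 75th percentile and 2 without the LTHSC pair, which enters this comparison only through the estimate of the spread. Of all 12807 features, 270 and 209 were called either way with these settings, against 61.

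Neutrophil markers moved strongly in the same arrays. Their committed median was -3.83, 7 of 14 were called lower, and their summed linear signal was 987.39 to 3835.2 in A/- against 8568.7 to 125460 in +/+. Ngp, Mmp8, Mmp9, Cd177, Itgam and Chil3 were detected on 0 of the 3 A/- arrays, and Mmp8 and Itgam on 0 of the 3 +/+ arrays. S100a8, a calprotectin subunit, was at 8.37, 11.22 and 9.89 on the A/- CMP, GMP and MEP arrays against 12.44, 15.24 and 15.40 on the +/+ arrays. Erythroid markers had a median of 0.72 (0 of 10 called), with 1.96 in GMP. Their part in the differences of H2ac6, H2bc8, H1f2 and H3f3b was not tested.

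The genotype difference itself was then compared between the 2 classes of cells. The difference in committed progenitors minus that in LSK cells had a median of 0.86 over the replication-dependent genes and of -0.01 over all features. Limma called 0 of 56 genes, against 0.00781% of all features, and the smallest adjusted p was 0.573. At an unadjusted p under 0.05, 36 genes were higher and 2 lower, against 4.66% and 3.7% of all features. H4c17 had the smallest p (1.18, SE 0.26), since its A/- and +/+ levels were 10.36, 10.38 and 10.60 against 10.41, 10.33 and 10.24 in CMP, GMP and MEP. All 12 H4 genes were among the 36. H2bc8 was among the 2 lower genes, at -0.81. Without the MPP pair the median was 0.59 with 29 genes, again without a share over all features.

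**Figure D5:**
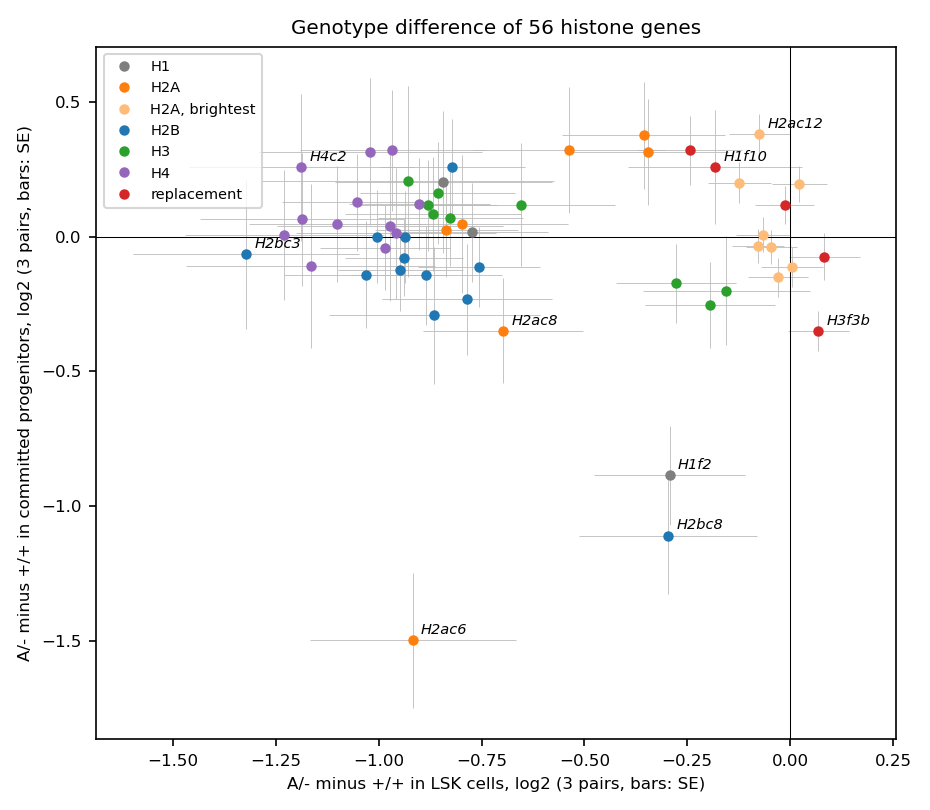
A/- minus +/+ difference in log2 signal in LSK cells (horizontal) and in committed progenitors (vertical) for 56 histone genes, with bars of 1 SE from limma over 3 pairs each. Most replication-dependent genes lie left of 0 and near 0 vertically, and H2ac6, H2bc8 and H1f2 lie apart at -1.50, -1.11 and -0.89 in committed progenitors.

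Over all 6 populations H2ac6, an H2A gene, was the histone gene that passed, at -1.21 (SE 0.19, n = 6 pairs, limma adjusted p = 0.0328), and it was 1 gene of 56, against 0.593% of all features (0.429% lower). It was at 6.72, 7.89, 7.43, 7.51, 7.41 and 4.66 on the A/- LTHSC, STHSC, MPP, CMP, GMP and MEP arrays, and at 7.27, 8.61, 8.91, 8.5, 8.98 and 6.59 on the +/+ arrays. The -/- LTHSC array was at 6.60. It was lower in A/- in 6 of 6 pairs, and on the A/- MEP array it was not detected (detection p 0.656), so the MEP difference is a bound on this scale. The call was lost without CMP (adjusted p = 0.14), GMP (0.14), MPP (0.124), STHSC (0.12) or MEP (0.0554), and over all alternatives the adjusted p lay between 0.00847, without LTHSC, and 0.14. The replication-dependent genes had a median of -0.39, and 17 were lower at an unadjusted p under 0.05, 11 of them H2B, and 0 higher, against 8.07% and 7.49% of all features. Lower in all 6 pairs were 7 genes, H2ac6, H2ac8, H2bc4, H2bc8, H2bc15, H2bc18 and H4c9, against 3.87% of all features, and 0 were higher in all 6, against 4.75%.

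Next by p were H1f2, H2ac8 and H2bc8. H1f2, a linker histone gene, was at 11.74, 11.99, 11.56, 11.05, 11.19 and 10.88 in A/- from LTHSC to MEP, and at 11.37, 12.54, 12.26, 11.96, 12.07 and 11.76 in +/+. It was lower in A/- in each pair but LTHSC (difference -0.59, SE 0.16, n = 6 pairs, limma adjusted p = 0.146). H2ac8 was at 7.88, 9.70, 8.34, 9.53, 9.34 and 8.38 in A/- and at 8.41, 10.14, 9.46, 9.83, 10.10 and 8.38 in +/+ (difference -0.52, SE 0.14, adjusted p = 0.158). Its A/- and +/+ levels in MEP were nearly equal. H2bc8 was at 6.32, 8.34, 8.03, 8.33, 8.25 and 5.48 in A/- and at 6.90, 8.39, 8.29, 8.91, 9.47 and 7.0 in +/+ (difference -0.70, SE 0.20, adjusted p = 0.159). Its A/- MEP array was not detected either (detection p 0.0716). Human counterparts of H2ac6 and H1f2 are known to give polyadenylated transcripts in differentiated cells.

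The promoters of these 4 genes lie at chr13:23683960-23684079 (minus strand) for H2ac6, chr13:23738687-23738806 (plus strand) for H1f2, chr13:23571221-23571340 (minus strand) for H2ac8 and chr13:23571280-23571399 (plus strand) for H2bc8. They are shown because these genes had the smallest p over all 6 populations, and capitals mark the same 5 motifs.
H2ac6: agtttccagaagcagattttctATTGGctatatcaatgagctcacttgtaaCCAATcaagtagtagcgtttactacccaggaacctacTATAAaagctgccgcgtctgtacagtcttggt
H1f2: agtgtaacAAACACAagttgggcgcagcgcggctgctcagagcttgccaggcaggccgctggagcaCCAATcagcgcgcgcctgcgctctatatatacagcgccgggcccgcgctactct
H2ac8: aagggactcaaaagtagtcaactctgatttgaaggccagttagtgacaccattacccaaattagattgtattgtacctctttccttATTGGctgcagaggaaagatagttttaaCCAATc
H2bc8: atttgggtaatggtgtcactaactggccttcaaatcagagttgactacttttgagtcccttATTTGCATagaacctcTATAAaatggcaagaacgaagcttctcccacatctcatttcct
H2ac8 and H2bc8 start 179 bases apart on opposite strands, so their stretches overlap as reverse complements. H2ac6 has CCAAT in both orientations upstream of TATAA, H1f2 has AAACACA upstream of CCAAT, and H2bc8 has the octamer upstream of TATAA.

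Between cell classes, with genotype as a covariate, the replication-dependent genes had a median of 0.38 for committed progenitors minus LSK cells, and limma called 7 histone genes higher and 4 lower, against 22.3% and 23.6% of all features. Higher were H3c8 (1.17, SE 0.20, adjusted p = 0.00155), H4c2 (0.97), H4c14 (0.88), H4c17 (0.78), H4c18 (0.71), H2ac4 (0.62) and H1f1 (0.53). Lower were H1f10 (-1.33, SE 0.16, adjusted p = 2.55e-04), a replacement linker histone gene, H2ac6 (-0.53), H3f3b (-0.39) and H3f3a (-0.20). Scatter between the populations of a class is not in the error of this contrast. Its SEs and p-values therefore do not measure how far the classes differ beyond that scatter. The dimmer LTHSC arrays also lie wholly in the LSK class. H3c8 was not detected on the A/- LTHSC array, nor was H4c14. The contrast averages the 2 genotypes, which differed here. In +/+ the 12 H4 genes had medians of 9.86, 10.39 and 10.16 from LTHSC to MPP, against 10.3, 10.16 and 10.07 from CMP to MEP. In A/- these medians were 8.68, 10.07 and 8.55 against 10.33, 10.33 and 10.53. The numbers of called genes depend on the scaling. With scaling to the 75th percentile 40 were higher and 1 lower, with the authors' processed values 53 and 1, and with cyclic loess 2 and 11. With these settings 7689, 11501 and 5704 of the 12807 features were called either way, against 5877. The median of all features moved too, to 0.27 and 0.64 with the first 2 of these, against 0.03. The differences of H3f3a and H3f3b turned positive with both. That of H2ac6 turned positive with the authors' values (0.33) and without the MEP pair (0.30). Beside the histone genes, 22 of 34 replication genes and 11 of 23 chaperone genes were called higher and 0 lower in either list, with medians of 0.42 and 0.22.

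Stepwise, 7 histone genes were called higher in STHSC than in LTHSC (5.65% of all features), 3 lower in MPP than in STHSC (2.66%), 0 either way in CMP against MPP (2.4%), 0 in GMP against CMP (0%) and 4 lower in MEP than in CMP (18.1%). Each step rests on 2 arrays per population, 1 of each genotype. H1f10 was at 10.58 and 10.45 in STHSC against 9.31 and 9.46 in LTHSC (A/- and +/+). MPP arrays had 8.33 and 8.86, CMP arrays 8.82 and 8.87, GMP arrays 8.94 and 8.11, and MEP arrays 7.14 and 7.14. It was thus highest in STHSC and lowest in MEP at both genotypes, and it was called in 3 steps (1.13, -1.92 and -1.71). H2ac8 was called in the same 3 steps (1.78, -1.02 and -1.30), and H2bc8 and H2ac6 in the first (1.75 and 1.25) and last (-2.38 and -2.38). The other calls were H3c8 (1.75), H2ac21 (1.1) and H2ac15 (0.38) for STHSC minus LTHSC and H2az1 (-0.45) for MPP minus STHSC. With H2ac15 the sign turned under cyclic loess. Over the steps that remain without the MPP pair the calls numbered 32, against 11 for the same steps with all pairs, and over those that remain without CMP 4, against 10. For STHSC minus LTHSC the share of all features called was 13.5% without MPP and 5.89% without CMP, against 11.2%.

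The +/+ arrays alone give the order of the populations without the genotype difference. For the 51 replication-dependent genes their median levels from LTHSC to MEP were 10.60, 11.24, 10.98, 11.14, 10.91 and 10.71. The A/- medians in the same order were 9.71, 10.78, 9.56, 10.98, 11 and 10.89. The A/- MPP array was therefore the lowest of the 13 and the +/+ STHSC array the highest, and with 1 array for each the neighbours in this order cannot be told apart by a spread. Within A/- the lowest were MPP and LTHSC, and within +/+ LTHSC and MEP.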

How the data were processed

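RNA from 13 sorted cell samples was isolated on columns, then turned into biotin-labelled cRNA (per the labels' protocols). Per the file headers, a probe intensity and a detection p-value were deposited for each array. No source used here gives the scanner software. Intensity values that the authors had processed further were deposited too. Their medians were 52.19 to 52.2 on the LTHSC arrays and 175.7 to 175.9 on the other 10, on a linear scale without centring of genes, and their method is not stated. With limma 3.58.1 in R 4.3.3, neqc (background from the detection p-values, offset 16, quantiles) gave log2 values from the deposited intensity, which here are relative because normalization removes differences in total RNA. The brightest probe per gene and a detection p under 0.01 on 2 or more arrays left 12807 features. Gene names came from the platform annotation, where 34885 probes had 1 symbol, 18 several and 10378 none, and 326 empty lines were left out. Chromosome positions came from RefSeq. lmFit and eBayes, with the prior variance following mean level, had population as a block, so pairs of arrays are the replicates, the -/- array was left out, and Benjamini-Hochberg adjustment ran over all features at 0.05. With 1 array per genotype and population, p-values measure only the spread of the difference between populations. The number of arrays limits the precision. Single pairs have no test.

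The members, gene lists and tests were chosen with earlier results of these data known. Every member may be named, in full those past adjusted p 0.05 and, for each comparison, up to 6 with the smallest p each way. From lists, called genes and up to 4 with the highest signal may be named. At least 1 member of each family was named. The sort antigens, Hba-a1 and the markers detected on 0 arrays of a group were named after their values were seen. The script was tested on simulated data. Alternatives were cyclic loess, 75th percentile scaling, the authors' processed values, offset 50, no trend, no filter, detection on 6 arrays, mean over detected probes, LTHSC normalized apart and each pair left out.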

Additional observations from a re-analysis of the deposited data

How the results depend on the processing

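The lower LSK values of replication-dependent genes kept their direction under every alternative run. Medians lay between -1.07 (without STHSC) and -0.57 (without MPP), with 28 to 39 genes at an unadjusted p under 0.05. With the authors' processed values the median was -0.61. The share of all features at an unadjusted p under 0.05 was counted only with the main settings. In the LSK comparison 81 of 12807 features were called without LTHSC, 5 of 29453 without the filter, and 0 with each other setting. Leaving out pairs gave 0 to 2 lower calls over 6 populations (0 without the trend), 12 to 31 genes lower there at an unadjusted p under 0.05, and 0 to 2 lower calls in committed progenitors. Committed progenitors also had 2 with 75th percentile scaling and 1 each with detection on 6 arrays, probe means or no filter. Features called there numbered 270 of 12807, 70 of 11027, 57 of 12824 and 98 of 29453 with these settings, against 61. With pairs left out 1 to 209 features were called there, and 2 to 473 over 6 populations, against 76. Between cell classes the median was 0.91 with the authors' values. Higher calls were 40 with percentile scaling, 2 with cyclic loess, 53 with the authors' values and 1 to 26 with pairs left out. Lower calls were 1, 11 and 1 with those scalings, 2 without the filter, 2 without the trend and 2 to 6 with pairs left out. Of all 12807 features, 7689, 5704 and 11501 were called either way with those scalings. With pairs left out 3176 to 6092 were called, against 5877 with the main settings. Calls over the steps were 40 with percentile scaling, 9 without the trend, 63 with the authors' values, against 14. Of these, STHSC minus LTHSC gave 33, 4 and 56, against 7. The share of all features called in that step was 35.9%, 10.1% and 98.8%, against 11.2%. A left-out population removes its own steps, so the totals with pairs left out, 4 to 32, cover fewer steps. Against the same steps with all pairs, the calls were 32 against 11 without MPP and 4 against 10 without CMP, and within 1.5 times without each of the others. Genes at least 2-fold lower numbered 4 and 3 in -/- LTHSC and 6 and 1 in A/- LTHSC with percentile scaling and the authors' values, and with the authors' values 1 in GMP and 0 in MEP. With LTHSC normalized apart, replication-dependent medians were 8.10 in A/-, 8.34 in -/- and 8.86 in +/+, and the medians of all features fell as well. Signs turned for H2ac15 in STHSC minus LTHSC (-0.16, cyclic loess), and in committed minus LSK cells for H2ac6 (-0.99 to 0.30 with pairs left out, positive without MEP, and 0.33 with the authors' values), H3f3a (0.45 with percentile scaling, 0.15 with probe means, 0.51 with the authors' values) and H3f3b (0.24 and 0.31 with percentile scaling and the authors' values). The causes were not tested. Population as a block, that is the pairing of A/- with +/+, was part of every fit, and the labels carry no further replicate numbers. Bright probes near the top of the scale and signals near background limit single members.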
